A study of Mus musculus with 7 samples.

Results

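The mitochondrial chaperones and proteases were followed through 10 genes in mouse embryonic fibroblasts (MEFs), chosen by gene symbol from the 49382 genes of the expression table: the chaperones Hspd1, Hspe1, Hspa9, Trap1 and Dnaja3, and the protease genes Lonp1, Clpp, Clpx, Yme1l1 and Afg3l2. All 10 had 1 row each, and all 10 were among the 12909 genes kept for a mean level of 2 TPM or more. The cells were wild type primary fibroblasts from mid-gestation embryos, grown in DMEM with serum, and the data were 7 RNA-seq libraries, 1 of untreated control cells and 1 of each of 6 conditions. Cells were kept for 10 hours in medium without glucose (glucose depletion), in medium without glutamine (glutamine depletion) or at 0.1% oxygen (hypoxia), or were treated for 10 hours with 1 μM thapsigargin, which blocks the calcium pump of the ER (ER stress). The 3-hour treatments were 10 μM sodium arsenite, a thiol-reactive agent (oxidative stress), and 100 mM added NaCl (osmotic stress). The control has no time point of its own in the labels, so treatment time and treatment cannot be told apart between the 3-hour and the 10-hour conditions.

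Levels are in TPM, the share of a gene's transcripts in a library after correction for their length, scaled so that each library sums to 1000000, so levels of different genes can be compared on this scale. A change is log2(TPM + 1) in a condition minus log2(TPM + 1) in the control library, and a gene is said to have risen or fallen only where this passed 2-fold. No condition had a replicate. The values therefore carry no estimate of error, there is no test and no p-value, and all 6 comparisons share the same control library. TPM keeps no read count, so the depth is unknown. The 5 macrophage markers summed to between 6.13 and 12.7 TPM and the 6 fibroblast markers to between 6060 and 12600 TPM, the lowest in ER stress. Of the macrophage markers, Ptprc, Itgam and Adgre1 were below 1 TPM in every library. Cd68 was between 5.26 and 9.77 TPM and Csf1r between 0.744 and 2.25 TPM. In bulk RNA, fewer cells of a type and less RNA per cell cannot be told apart, and the part of these markers in the results was not tested. The 3 endothelial markers summed to between 2.14 and 5.37 TPM and the 4 epithelial markers to between 3.87 and 11.6 TPM. Genes known to answer to 5 of the treatments (none was read for glutamine depletion) stood beside the members. Hmox1, the heme oxygenase, was at 266 TPM untreated and 6055 TPM in oxidative stress. It was also at 1802 TPM in ER stress and 497 TPM in hypoxia. Hspa5, the ER chaperone BiP, was at 1165 TPM untreated and 12611 TPM in ER stress. Bnip3, a mitophagy receptor, was at 26.7 TPM untreated and 797 TPM in hypoxia. Akr1b3, the sorbitol-forming aldose reductase, was at 90.5 TPM untreated and 575 TPM in osmotic stress. Txnip, an arrestin-like inhibitor of thioredoxin, was at 70.7 TPM untreated and 16.1 TPM in glucose depletion, and lower still, at 7.22 TPM, in osmotic stress.

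Most mitochondrial proteins are made in the cytosol and enter the organelle unfolded. Hspa9 (mortalin, the mitochondrial HSP70) pulls them through the inner membrane and holds them, with the J-domain protein Dnaja3 (Tid1) as a partner that stimulates its ATPase. The chaperonin Hspd1 (HSP60) then folds many of them inside a ring that is closed by its lid, Hspe1 (HSP10), while Trap1 is the HSP90 of the matrix. Proteins that fail to fold or assemble are degraded by ATP-driven proteases. Lonp1 and the ClpXP complex, in which the unfoldase Clpx feeds the peptidase Clpp, work in the matrix, and the metalloproteases Yme1l1 and Afg3l2 sit in the inner membrane with their active sites on the intermembrane space side and the matrix side. A transcriptional response to misfolding in the matrix, known as the mitochondrial unfolded protein response, is commonly read from Hspd1, Hspe1, Hspa9, Lonp1 and Clpp.

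In GRCm38 the 8 genes below lie on 5 chromosomes. Hspd1 (ENSMUSG00000025980, chromosome 1, 55077835 to 55088243, minus strand) and Hspe1 (ENSMUSG00000073676, chromosome 1, 55088132 to 55091307, plus strand) stand head to head, and their annotated first exons overlap on opposite strands by 112 bases, which are 4.24% of the exon bases of Hspd1 and 7.60% of those of Hspe1. Dnaja3 (ENSMUSG00000004069) lies on chromosome 16 from 4639989 to 4707695 on the plus strand and shares 153 exon bases with Coro7 on the opposite strand and 160 with Vasn on its own. Trap1 (ENSMUSG00000005981), on chromosome 16 from 4039971 to 4077827 on the minus strand, shares 54 with Dnase1. The libraries were stranded, but Kallisto at its default settings does not use strand, so reads in these overlaps could be counted for either gene. Lonp1 (ENSMUSG00000041168) occupies chromosome 17 from 56614297 to 56626887 on the minus strand, and Clpp (ENSMUSG00000002660) the same chromosome from 56990305 to 56996188 on the plus strand. Clpx (ENSMUSG00000015357) is on chromosome 9 from 65294260 to 65330658, and Yme1l1 (ENSMUSG00000026775) on chromosome 2 from 23156369 to 23199260, both on the plus strand.

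Promoter sequences from RefSeq (GRCm38.p6) matched 8 of the 10 genes, all but Hspa9 and Afg3l2, in windows of 250 bases before and 50 bases after each annotated start. Stretches of 3 of them are shown because Hspd1 and Hspe1 share 1 of these promoters and because Lonp1 and Dnaja3 had the largest changes. The first is the stretch between the main annotated starts of Hspd1 and Hspe1, read on the Hspe1 strand at chr1:55088025-55088131, in which the capitals mark a heat shock element, the repeat bound by HSF1. An alternative first exon of Hspd1 also runs through this stretch. In the Lonp1 stretch (chr17:56626888-56627007, minus strand) capitals mark CACGTG and then TGACGT, and in the Dnaja3 stretch (chr16:4683950-4684069, plus strand) a match to the NRF-1 core. The Dnaja3 stretch lies inside the gene span given above. It ends at the RefSeq start, which is downstream of the first base of that span.
Hspd1 and Hspe1: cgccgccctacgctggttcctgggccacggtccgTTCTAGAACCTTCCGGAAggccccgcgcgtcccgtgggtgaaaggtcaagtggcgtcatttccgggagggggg
Lonp1: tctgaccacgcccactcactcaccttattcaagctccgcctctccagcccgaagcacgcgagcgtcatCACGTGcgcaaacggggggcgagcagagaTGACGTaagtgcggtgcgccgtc
Dnaja3: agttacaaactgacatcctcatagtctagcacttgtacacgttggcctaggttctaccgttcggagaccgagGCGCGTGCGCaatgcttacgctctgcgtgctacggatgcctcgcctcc

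All motifs were searched on both strands of the 32851 windows. The element between Hspd1 and Hspe1 has 4 alternating TTC and GAA units, each 2 bases from the next, at bases 55088059 to 55088076, and falls in windows of both genes. A run of 4 units was found in 5 windows (0.0152%), which include a window of Hspd1 and that of Hspe1 with this same element. A run of 3 units was in 0.603% of windows, and a pair of units (TTCNNGAA), which every longer run contains, in 8.52%. Among the other 6 genes with a window, a pair stood in that of Clpp alone, 34 bases after the start. CACGTG, the E-box, was in 7.15% of windows and contains ACGTG, the core of the hypoxia response element, which was in 19.6%. ACGTG stood in windows of Lonp1, Hspd1, Clpx and Dnaja3, with the E-box in those of Lonp1 and Hspd1. TGACGT, a core of cyclic AMP response elements, was in 7.51% of windows and in those of Lonp1 and Trap1, and the NRF-1 core (GCGCA and GCGC with 1 base between them) in 4.60% and in those of Dnaja3 and Hspd1. CCAAT stood in 37.4% of windows and in those of Hspd1, Yme1l1, Clpx and Dnaja3. TGATGNAA, a composite site of ATF4 and C/EBP factors, was in 3.97% of windows, and the ER stress response element, CCAAT and CCACG with 9 bases between them, in 0.119%, and neither was in a window of the 8 genes. Hspd1 has 2 windows. Its ACGTG, E-box, NRF-1 and CCAAT matches lay in the window of its start at 55088243, outside the stretch shown, and the heat shock element in the other. A match describes letters in a window and is not evidence that a factor binds there.

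In the control library the levels of the 10 genes spanned a wide range. Hspd1 was highest at 481 TPM, followed by Hspa9 at 422 TPM and Hspe1 at 331 TPM, and these 3 made up 79.0% of the summed level of the 10. Lonp1 was at 69.8 TPM, Clpp at 56.4, Trap1 at 55.2, Yme1l1 at 51.5, Dnaja3 at 40.5, Afg3l2 at 38.0 and Clpx at 17.3 TPM. Together the 10 genes took 0.156% of the library's TPM in the control, between 0.147% and 0.161% in 5 of the conditions, and 0.277% in ER stress. Hypoxia had the lowest sum and ER stress stood well apart from the other 6 libraries.

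**Figure D1:**
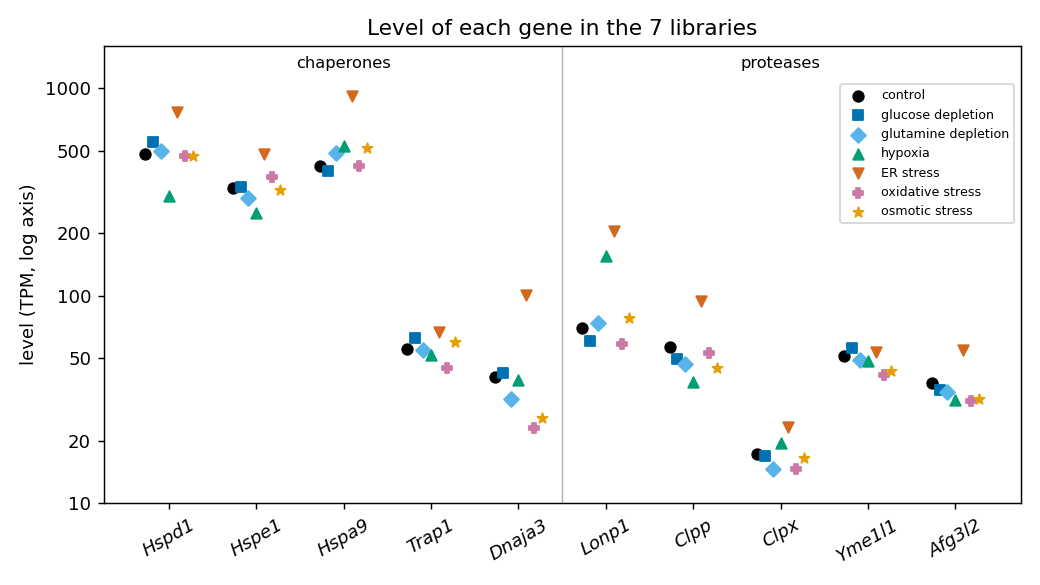
Level in TPM (log axis) of each of the 10 genes in each of the 7 libraries, 1 point per library, with chaperones on the left and proteases on the right. The ER stress library was highest for 9 of the 10 genes, and Lonp1 was also high in hypoxia, at 156 TPM.

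ER stress was the condition in which the genes moved together. All 10 had a positive log2 change, from 0.06 for Yme1l1 to 1.54 for Lonp1, with a median of 0.61 where the median over all 12909 genes was 0. More than 2-fold increases were seen for 3 of the 10, namely Lonp1, Dnaja3 and Hspa9, beside 8.60% of all genes. At 1.5-fold, 5 of the 10 were up, with Hspd1 and Clpp added, beside 19.0% of all genes. None of the 10 had a negative value, where 6260 of the 12909 genes did, and 11.0% of all genes fell past 2-fold and 21.3% past 1.5-fold. Other lists described below also had positive values in ER stress. These were all 8 cytosolic chaperonin subunits, all 6 regulators of mitochondrial stress signalling and 7 of 9 other mitochondrial chaperones. The lower quartile of those 9 was 0.00, so some of the 7 were barely above the control. The counts were 10 of 17 for the other proteases, 11 of 19 for import and 8 of 21 for other mitochondrial proteins. The changes of all 10 members were positive also with mitochondrially encoded genes removed and against the median of the other 6 libraries in place of the control. Subtracting the median change of all genes could not alter them, since that median was 0 in this condition.

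Lonp1, the Lon protease of the matrix, had the largest change. Its level was 69.8 TPM in the control, 60.7 in glucose depletion, 73.7 in glutamine depletion, 156 in hypoxia, 204 in ER stress, 58.5 in oxidative stress and 78.3 in osmotic stress. ER stress and hypoxia stood apart, and the other 5 libraries lay within 58.5 to 78.3 TPM. The log2 change was 1.54 in ER stress, which placed it 465th from the top of the 12909 genes, and 1.15 in hypoxia, where it was 402nd. Lonp1 was the only member past 2-fold in more than 1 condition.

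Dnaja3, the J-domain partner of mortalin, moved most across the libraries, with a ratio of 4.36 between its highest and lowest level. It stood at 40.5 TPM in the control, 42.4 in glucose depletion, 31.8 in glutamine depletion, 39.2 in hypoxia, 100 in ER stress, 23.0 in oxidative stress and 25.9 in osmotic stress. ER stress was high and the 3-hour treatments were low. The rise in ER stress had a log2 change of 1.29, and the values in oxidative and osmotic stress were -0.79 and -0.63, neither past 2-fold. Its partner Hspa9 (ENSMUSG00000024359) lies on the minus strand of chromosome 18, from 34937414 to 34954357. Its level was 422 TPM in the control, 400 in glucose depletion, 485 in glutamine depletion, 528 in hypoxia, 914 in ER stress, 423 in oxidative stress and 513 in osmotic stress. Hspa9 rose in ER stress with a log2 change of 1.11 and stayed between 400 and 528 TPM elsewhere, so the low levels of Dnaja3 in oxidative and osmotic stress had no counterpart in Hspa9.

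The chaperonin Hspd1 and its lid Hspe1, which share the promoter shown above, were highest in ER stress and lowest in hypoxia. Hspd1 was at 481 TPM in the control, 553 in glucose depletion, 500 in glutamine depletion, 304 in hypoxia, 771 in ER stress, 474 in oxidative stress and 474 in osmotic stress. Hspe1 was at 331 TPM in the control, 334 in glucose depletion, 294 in glutamine depletion, 252 in hypoxia, 482 in ER stress, 374 in oxidative stress and 325 in osmotic stress. Neither passed 2-fold in any condition, and the log2 changes in ER stress were 0.68 for Hspd1 and 0.54 for Hspe1. In hypoxia they were -0.66 and -0.39, and Hspd1 was 786th from the bottom of the 12909 genes there. The ratio of Hspd1 to Hspe1 in TPM was 1.45 in the control, 1.65 in glucose depletion, 1.70 in glutamine depletion, 1.21 in hypoxia, 1.60 in ER stress, 1.27 in oxidative stress and 1.46 in osmotic stress. Hspd1 was thus the higher of the pair in all 7 libraries, by the least in hypoxia and oxidative stress. The table also lists 4 pseudogene rows named after Hspd1, 5 after Hspe1 and 1 after Hspa9, whose highest values were 1.21, 1.34 and 0.164 TPM. Reads that fit both a gene and its processed copies are split by estimation, and the error this leaves in the levels of the 3 parents was not measured.

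**Figure D2:**
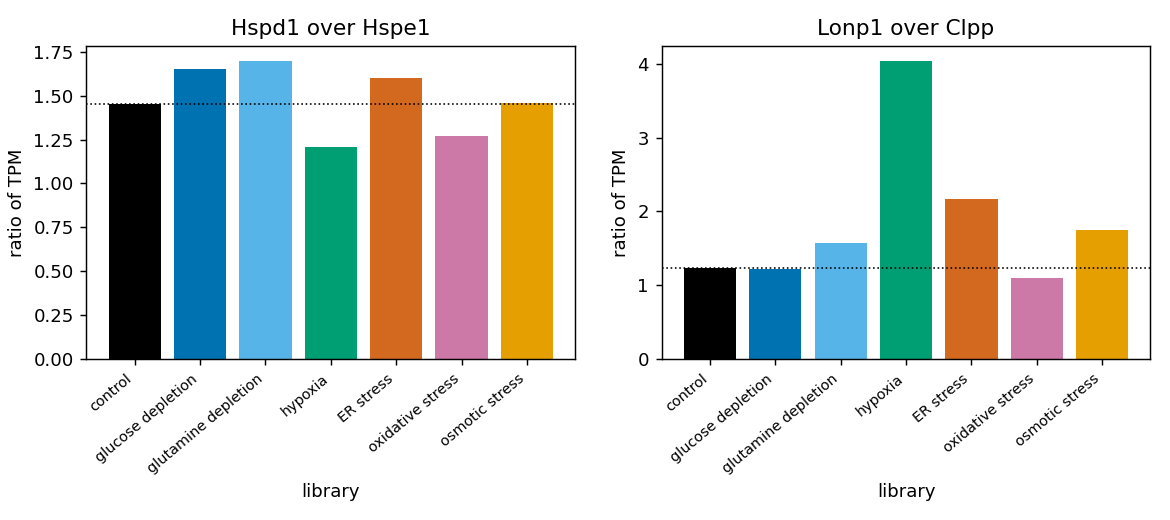
Ratio of TPM of Hspd1 to Hspe1 (left) and of Lonp1 to Clpp (right) in each of the 7 libraries, with bars from 0 and the control as a dotted line. The Hspd1 to Hspe1 ratio ran from 1.21 to 1.70, and the Lonp1 to Clpp ratio was 4.04 in hypoxia against 1.24 in the control.

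The ClpXP protease did not follow Lonp1 in hypoxia. Clpp, the peptidase, was at 56.4 TPM in the control, 49.7 in glucose depletion, 47.1 in glutamine depletion, 38.5 in hypoxia, 94.1 in ER stress, 53.1 in oxidative stress and 44.9 in osmotic stress. It was highest in ER stress (log2 change 0.73) and lowest in hypoxia (-0.54), the library in which Lonp1 was at its second highest. The ratio of Lonp1 to Clpp was 1.24 in the control, 2.17 in ER stress and 4.04 in hypoxia, and ran from 1.10 to 1.74 in the other 4 libraries. Clpx, the unfoldase, was the lowest of the 10 genes in every library, between 14.6 and 23.4 TPM, with log2 changes of 0.41 in ER stress and 0.17 in hypoxia. Clpp stood over Clpx by a ratio of 3.26 in the control, 1.97 in hypoxia and 4.02 in ER stress.

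The proteases of the inner membrane and Trap1 stayed within 2-fold in all 6 conditions. Yme1l1 was at 51.5 TPM in the control and between 41.3 (oxidative stress) and 55.8 TPM (glucose depletion) over the conditions. It was the only 1 of the 10 genes whose highest level was not in ER stress, where its log2 change was 0.06. Afg3l2 (ENSMUSG00000024527), on the minus strand of chromosome 18 from 67404764 to 67449172, had 38.0 TPM in the control, 54.9 in ER stress (log2 change 0.52) and 31.1 to 35.1 TPM in the other 5 conditions. Yme1l1 exceeded Afg3l2 by a ratio of 1.36 in the control and 1.33 to 1.59 in 5 conditions, and the pair was nearly level in ER stress, at 0.979. Trap1 was at 55.2 TPM in the control, 62.3 in glucose depletion, 55.0 in glutamine depletion, 51.5 in hypoxia, 67.0 in ER stress, 45.1 in oxidative stress and 60.1 in osmotic stress, with log2 changes between -0.29 and 0.27.

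**Figure D3:**
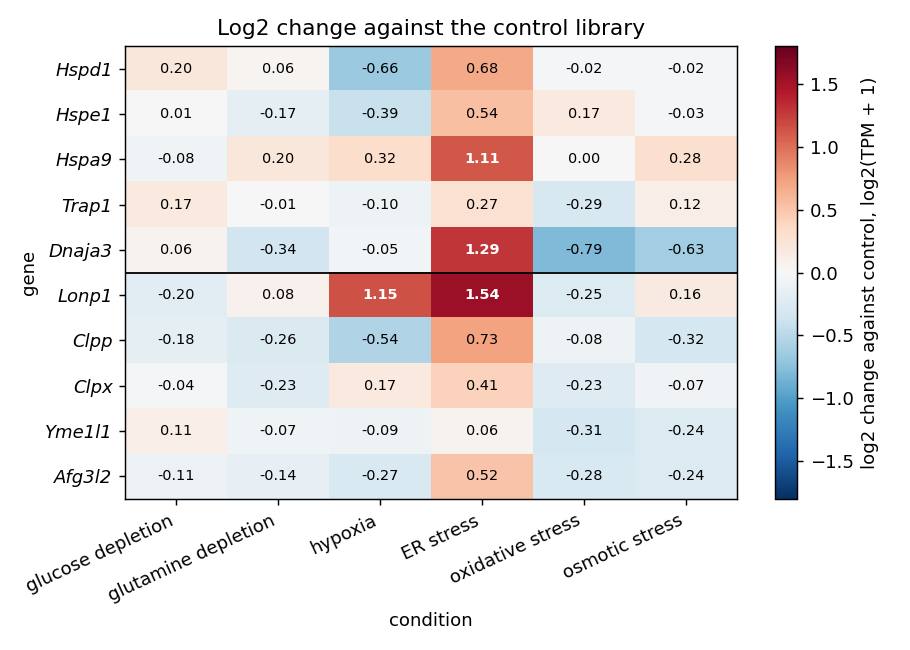
Log2 change of each gene (rows) against the control library in each condition (columns), on the log2(TPM + 1) scale, with values past 2-fold in bold white. The 4 values past 2-fold were those of Lonp1, Dnaja3 and Hspa9 in ER stress (1.54, 1.29 and 1.11) and of Lonp1 in hypoxia (1.15).

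In hypoxia the 10 genes lay on both sides of the control. Their median log2 change was -0.09, beside -0.05 over all genes, and the values ran from -0.66 for Hspd1 to 1.15 for Lonp1. The quartiles of the 10 were -0.36 and 0.12 and those of all genes -0.28 and 0.17, so the 10 were spread about as widely as the rest. Of the 10, 1 rose and 0 fell by more than 2-fold, where 3.57% of all genes rose and 2.64% fell. At 1.5-fold the counts were 1 up and 1 down (Hspd1), beside 7.23% and 8.10% of all genes. Hspa9 and Clpx were the other members with positive values, at 0.32 and 0.17, while Clpp and Hspe1 stood at -0.54 and -0.39.

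In oxidative stress no member passed 2-fold, where 3.94% of all genes rose and 4.85% fell. The median was -0.24, beside -0.16 over all genes, so most of this shift was shared with the whole library. Only Hspe1 (0.17) and Hspa9 (0.00) were at or above the control, and after centring on the median of all genes 4 of the 10 were positive. Mitochondrially encoded genes took 9.25% of the TPM in this library and 6.37% in the control, and with them removed 3 of the 10 were positive. Dnaja3 was the member that moved most, at 1121st from the bottom of the 12909 genes, and the only 1 past 1.5-fold, where 7.27% of all genes were up and 16.2% down. Hspd1 and Hspe1, with the heat shock element between them, had log2 changes of -0.02 and 0.17. In the same library Hspa1a, the inducible cytosolic HSP70, went from 7.52 to 273 TPM. Binding at the element was not measured, and its part in these values was not tested.

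Osmotic stress also left all 10 within 2-fold, where 3.08% of all genes rose and 8.76% fell. The median of the 10 was -0.05 and that of all genes -0.12. The sign of that small median depended on the scaling, since it was 0.07 after centring. Dnaja3 was again the only member past 1.5-fold, where 6.56% of all genes were up and 19.5% down. Apart from Dnaja3, the values ran from -0.32 for Clpp to 0.28 for Hspa9.

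Depletion of glucose or glutamine moved the 10 genes least. No member passed 2-fold or 1.5-fold in either, where 1.83% of all genes rose and 2.41% fell by more than 2-fold in glucose depletion, and 3.21% rose and 3.21% fell in glutamine depletion. At 1.5-fold the shares of all genes up and down were 3.47% and 6.23% in glucose depletion and 7.47% and 10.6% in glutamine depletion. The log2 changes ran from -0.20 for Lonp1 to 0.20 for Hspd1 in glucose depletion, and from -0.34 for Dnaja3 to 0.20 for Hspa9 in glutamine depletion. The medians were -0.01 and -0.11, beside -0.02 and -0.09 over all genes. With 1 library a condition, values of this size and the spread between cultures cannot be told apart.

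Some cytosolic relatives of the chaperones rose in oxidative stress, where no member did. The ER relatives Hspa5 and Hsp90b1 rose in ER stress, as did Hspa9 and Dnaja3. Hspa9 was set beside Hspa8, the constitutive cytosolic HSP70, and Hspa5, that of the ER. Hspa8 rose in oxidative stress from 2473 to 5102 TPM (log2 change 1.04), where Hspa9 was at 0.00. In ER stress Hspa5 had a log2 change of 3.44, Hspa9 1.11 and Hspa8 -0.32, so the mitochondrial HSP70 was between the other two. The ratio of Hspa9 to Hspa8 was 0.171 in the control, 0.461 in ER stress and 0.0828 in oxidative stress.
The HSP90 relatives showed a smaller contrast. Hsp90b1, the HSP90 of the ER, rose in ER stress from 1228 to 7025 TPM (2.52), while Trap1 was at 0.27 and the cytosolic Hsp90ab1 at 0.02. In oxidative stress the values were -0.62 for Hsp90b1, -0.29 for Trap1 and 0.41 for Hsp90ab1. Among the J-domain proteins, Dnaja3 and the cytosolic Dnaja1 went opposite ways in both, with 1.29 and -0.47 in ER stress and -0.79 and 0.74 in oxidative stress, and Dnaja2, also cytosolic, was at 0.36 and 0.27.

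**Figure D4:**
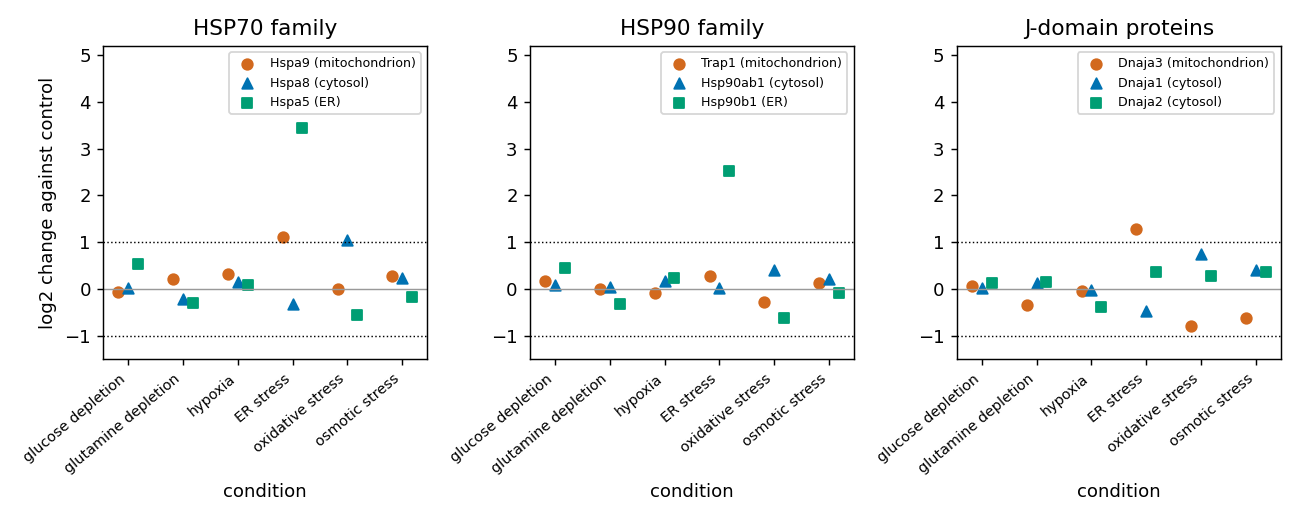
Log2 change against the control library (vertical axis) in each condition for the mitochondrial member and its cytosolic or ER relatives of the HSP70 family, the HSP90 family and the J-domain proteins, with dotted lines at 2-fold. In ER stress Hspa9 (1.11) lay between Hspa5 (3.44) and Hspa8 (-0.32), and Dnaja3 (1.29) lay above Dnaja1 (-0.47).

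Over the whole list of 19 cytosolic and ER relatives, 4 rose in oxidative stress and 0 fell, and 2 rose and 2 fell in ER stress. Of all genes, 3.94% rose and 4.85% fell in oxidative stress, and 8.60% rose and 11.0% fell in ER stress, so the ER stress counts of this list were near the background. Those that rose in oxidative stress were Hspa1a (5.01), Hspa1b (4.12), Dnajb1 (1.62), a cytosolic J-domain protein of the heat shock response, and Hspa8. Hspa1a and Hspa1b are near-identical copies whose reads cannot be split with certainty. Both also rose in osmotic stress (2.62 and 3.47) and were at -1.45 and -1.0 in ER stress, from levels of 7.52 and 22.8 TPM in the control. The cytosolic chaperonin, to which Hspd1 is distantly related, has 8 subunit genes in the list (Tcp1 and Cct2 to Cct8), and none passed 2-fold in any condition. Their medians were 0.39 in ER stress and -0.27 in hypoxia, beside 0.68 and -0.66 for Hspd1.

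The rest of the mitochondrial quality control machinery was read from 45 further genes. Of 9 other chaperones and cochaperones, 0 rose in ER stress and their median log2 change was 0.51, near the 0.61 of the 10 members. The list was uneven, from -0.04 to 0.90 with quartiles of 0.00 and 0.63, so part of it was level with the control. Within these 9, Clpb, a disaggregase of the intermembrane space, went from 21.9 TPM to 41.7 in ER stress (0.90). Grpel2, a nucleotide exchange factor of Hspa9, was at 9.86 and 18.5 TPM (0.85), and its paralog Grpel1 at 27.7 and 41.1 TPM (0.55). Grpel2 was the only 1 of these 9 past 2-fold in any condition, and it fell in osmotic stress, to 3.63 TPM (-1.23). Clpb and Grpel1 were chosen after their values were seen.
Of 17 other proteases, processing peptidases and scaffold proteins, 2 rose and 1 fell in ER stress, with a median of 0.06. Immp2l, a subunit of the inner membrane peptidase, rose from 2.88 to 14.1 TPM (1.96), and Parl, the rhomboid protease of the inner membrane, from 52.3 to 110 TPM (1.05). Lactb, a filament-forming protein of the intermembrane space, fell in ER stress from 23.4 to 9.44 TPM (-1.23) and in osmotic stress to 10.5 TPM (-1.08). Oma1, a stress-activated metalloprotease of the inner membrane, fell in oxidative stress from 12.9 to 5.72 TPM (-1.05). Atp23, a processing peptidase of the ATP synthase, fell there from 6.95 to 2.29 TPM (-1.27) and in osmotic stress to 2.74 TPM (-1.09).
The closest relatives of Afg3l2, the inner membrane protease subunits Afg3l1 and Spg7, were at 0.05 and -0.14 in ER stress, where Afg3l2 was at 0.52. Afg3l1 had 20.6 TPM untreated and 21.3 in ER stress, and Spg7 had 50.5 and 45.6 TPM. None of the 3 passed 2-fold in any condition.

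Among 19 genes of protein import, 1 rose in ER stress, Timm8a1, a small chaperone of the intermembrane space, from 30.3 to 73.3 TPM (1.25), and none fell. The list's median was 0.05 in ER stress and -0.40 in hypoxia, its lowest. Timm17a, a core subunit of the inner membrane translocase, had 193 TPM in the control and 107 in hypoxia (-0.85), the lowest value of the list there. In all, 3 of the 45 genes rose and 1 fell under ER stress, 2 fell in oxidative stress and 3 under osmotic stress, and none passed 2-fold in hypoxia or in either depletion. Over all genes, 8.60% rose and 11.0% fell in ER stress, 4.85% fell in oxidative and 8.76% in osmotic stress, and the counts among the 45 were no higher than these shares.
A comparison list of 21 nuclear genes of other mitochondrial proteins, such as enzymes of the citrate cycle and subunits of the respiratory chain, had no member past 2-fold in any condition. Its median was -0.18 in ER stress, where that of the 10 chaperones and proteases was 0.61. It was -0.21 in hypoxia, -0.22 in oxidative stress and 0.02 under osmotic stress.

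**Figure D5:**
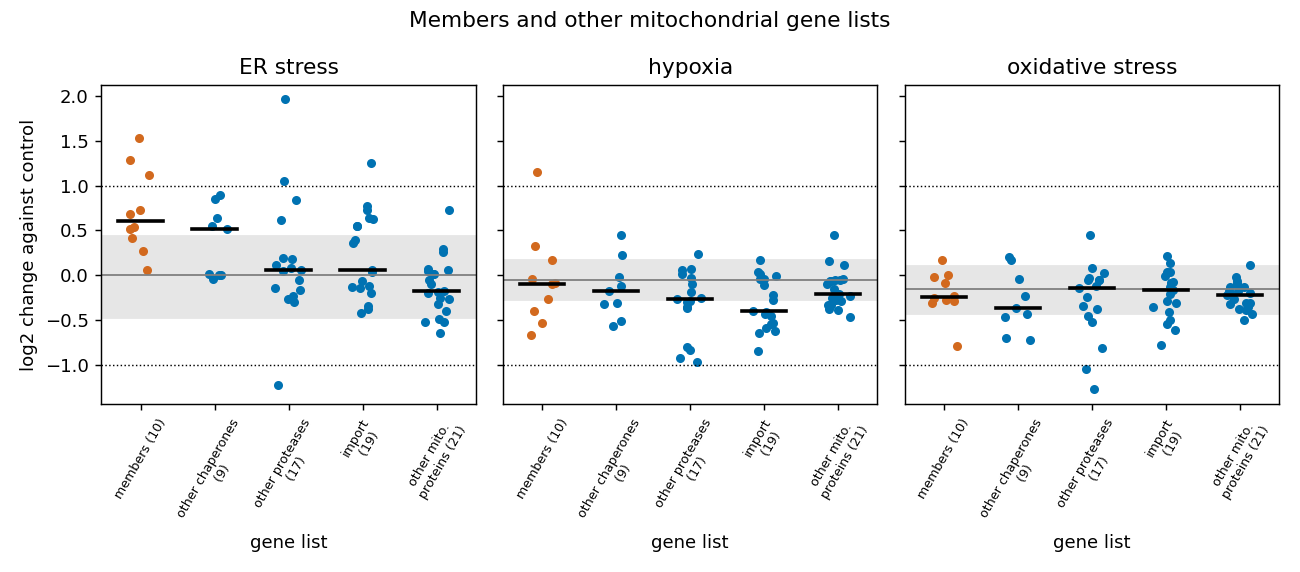
Log2 change against the control library for the 10 chaperones and proteases (orange) and 4 other mitochondrial gene lists (blue) in ER stress, hypoxia and oxidative stress, 1 point per gene with a black bar at the median. The grey line and band are the median and the interquartile range of all kept genes, and dotted lines mark 2-fold; the orange median was 0.61 in ER stress, -0.09 in hypoxia and -0.24 in oxidative stress.

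Regulators tied to mitochondrial stress signalling were read from the same libraries. Atf4, the transcription factor of the integrated stress response, rose in ER stress from 276 to 773 TPM (1.48), and Ddit3, which encodes CHOP, rose there from 136 to 1870 TPM (3.77). In hypoxia, the other condition in which Lonp1 rose, Atf4 was at 309 TPM (0.16) and Ddit3 at 208 TPM (0.61). These are transcript levels, and the part of either factor in the Lonp1 changes was not tested. In osmotic stress Ddit3 fell to 48.9 TPM (-1.46) while Atf4 was at 458 TPM (0.73). The other 4 stayed within 2-fold in all conditions. Of these, Atf5, a factor linked to the mitochondrial unfolded protein response, was at 190 TPM in the control, 235 in ER stress and 291 in hypoxia. Hsf1, the heat shock factor, was at 36.0 TPM and 55.5 TPM in ER stress, and Eif2ak1, the HRI kinase, at 23.9 and 29.3 TPM. Dele1, which relays mitochondrial stress to that kinase and stands in the table under its older symbol 0610009O20Rik, was at 22.4 TPM in the control, 29.5 in ER stress and 13.3 in oxidative stress.

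The genes most like Hspd1 and Lonp1 were found by the root mean square difference of the 6 log2 changes, over all kept genes outside the 10. The 5 nearest to Hspd1 were Gsto1, a glutathione transferase, at a difference of 0.078, Lrrc59 (0.088), a ribosome-binding protein of the ER membrane, Ehd4 (0.096), Pa2g4 (0.11) and 3110082I17Rik (0.12). Gsto1 was at 373 TPM in the control, 240 in hypoxia and 578 in ER stress. The 5 nearest to Lonp1 were less close. They were Aldh1l2 at 0.22, a formyltetrahydrofolate dehydrogenase, Mthfd1l (0.23), a formyltetrahydrofolate synthetase, Shmt2 (0.25), a serine hydroxymethyltransferase, Kif21b (0.25), a kinesin, and Gramd1b (0.25), a sterol transfer protein. Aldh1l2 was at 42.9 TPM in the control, 88.1 in hypoxia and 173 in ER stress, Mthfd1l at 20.4, 56.6 and 53.3 TPM, and Shmt2 at 123, 191 and 369 TPM. Kif21b and Gramd1b were at 3.43 and 3.35 TPM in the control, near the pseudocount. The ranking describes 6 changes that share a control.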

How the data were processed

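RNA from 7 cultures of MEFs was sequenced with a stranded mRNA protocol as paired-end reads. The study's methods give alternative read lengths without saying which applied to these libraries. The authors aligned reads with Kallisto (version 0.43.1 in the submitters' processing notes) at default settings to the Ensembl release 90 cDNA set (GRCm38). They deposited TPM per gene, the sum of its transcripts, totalling 1000000 in each library. TPM is a share, so a gene's value also moves with the rest of the library. Columns were matched to samples by title. Groups followed the labelled treatments.

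From the deposited TPM, log2(TPM + 1) minus the control value was computed, with a 2-fold rule as in the study's methods and a filter of a mean of at least 2 TPM. No test was made, with 1 library a group. Named genes were all members, list genes past 2-fold (at most 6 a list), the direct relatives, and the 5 genes nearest to Hspd1 and Lonp1. Clpb, Grpel1, Timm17a, Atf5, Hsf1, Eif2ak1 and Dele1 fall outside this rule and were named after their values were seen. The members and lists were chosen with earlier results of these data known. Alternatives were pseudocounts of 0.1 and 5 TPM, centring, removal of mitochondrially encoded genes, the median of the other 6 libraries as reference, thresholds of 1.5-fold and 3-fold, filters of none or 10 TPM, and protein-coding genes. Locations came from GENCODE M21, and promoters from RefSeq. The steps were tested on simulated data. The scripts ran in Python 3.11.15 with pandas 2.3.3, numpy 2.4.6 and, for plots, matplotlib 3.10.9.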

Additional observations from a re-analysis of the deposited data

How the results depend on the processing

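No paired analysis was possible because each group has 1 library and no replicate can be left out. Of 300 member changes recomputed under 5 alternatives, 290 kept their sign and their side of 2-fold or changed sign while moving by 0.1 or less, and 10 changed sign while moving by more than that (5 after centring and 5 against the median of the other 6 libraries, none past 2-fold). No call was lost. Lonp1, Dnaja3 and Hspa9 in ER stress and Lonp1 in hypoxia were past 2-fold in all 5, with lowest values of 1.48, 1.21, 1.01 and 1.10. Centring could not change the ER stress values, because the median over all genes was 0 there. The threshold moved the counts of members most. At 1.5-fold, 5 were up in ER stress and 1 was down in each of hypoxia, oxidative stress and osmotic stress, and at 3-fold 0 were up in ER stress and 0 in hypoxia. After centring, the members' median was -0.0865 in oxidative and 0.0728 in osmotic stress.

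The counts of the 45 other genes that changed by more than 2-fold moved as follows. With a pseudocount of 0.1 TPM, 1 changed in glutamine depletion and 1 in hypoxia, and with 5 TPM 0 changed in oxidative and 0 in osmotic stress. After centring, 1 changed in each of these, as with a mean of at least 10 TPM. Against the median of the other 6 libraries 1 changed in each of glucose depletion, oxidative stress and osmotic stress. At 1.5-fold the counts were 2 in glucose depletion, 3 in glutamine depletion, 8 in hypoxia, 13 in ER stress, 7 in oxidative stress and 8 in osmotic stress. At 3-fold they were 1 in ER stress, 0 in oxidative stress and 0 in osmotic stress.

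The shares of all kept genes past 2-fold in either direction, in the order glucose depletion, glutamine depletion, hypoxia, ER stress, oxidative stress and osmotic stress, were 2.61%, 3.35%, 3.88%, 11.8%, 4.49% and 5.17% with a pseudocount of 5 TPM, and 2.45%, 2.95%, 3.10%, 7.20%, 3.88% and 4.96% without a filter. At 1.5-fold they were 9.70%, 18.1%, 15.3%, 40.2%, 23.5% and 26.1%. At 3-fold they were 2.88% in glutamine depletion, 3.59% in hypoxia, 7.69% in ER stress, 3.90% in oxidative stress and 5.02% in osmotic stress. With a mean of at least 10 TPM they were 1.79%, 4.04%, 3.48%, 5.47% and 6.71% in the conditions other than ER stress. Among protein-coding genes they were 1.04% in glucose depletion, 3.75% in glutamine depletion, 2.95% in hypoxia and 5.25% in oxidative stress. The cause of these shifts was not tested beyond what each alternative changes. Without replicates or read counts, neither the spread between cultures nor counting error can be given.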

Other observations

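Lonp1 is known for degrading the respiratory chain subunit Cox4i1 at low oxygen, when the isoform Cox4i2 is made in its place. Cox4i2 was added after the data were examined. It was at 2.92 TPM in the control, 1.43 in glucose depletion, 2.97 in glutamine depletion, 29.8 in hypoxia, 0.315 in ER stress, 1.51 in oxidative stress and 3.94 in osmotic stress. It was thus highest in hypoxia (log2 change 2.97) and lowest in ER stress (-1.58), the library in which Lonp1 was highest. Outside hypoxia the Cox4i2 levels were near or below the pseudocount, so its change in ER stress rests on very low values. Cox4i1 was at 549 TPM in the control and between 515 and 621 TPM in the 6 conditions. These are transcript levels and hold no measure of either protein.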
